A study of Rattus norvegicus with 12 samples.

Results

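The cytosolic ribosome of a rat cell is built from ribosomal RNA and a set of ribosomal proteins, those of the large subunit (Rpl genes and the Rplp stalk genes) and those of the small subunit (Rps genes and Rpsa). The large subunit joins amino acids and threads the new peptide through an exit tunnel, and the small subunit holds the mRNA and reads its codons. The mRNAs of these genes are among the most abundant in growing cells. They usually begin with a run of pyrimidines (the terminal oligopyrimidine, or TOP, motif), through which the mTORC1 kinase controls their translation. Members were the genes whose platform symbol begins with Rpl or Rps and a digit, or with Rplp, or is Rpsa. Kinases of the Rps6k family, a binding protein (Rps19bp1) and genes with a symbol ending as a like gene were left out. The annotation held 61 such genes, 38 of the large and 23 of the small subunit. Of these, 56 were detected at a p under 0.02 on all 12 arrays, 34 of the large and 22 of the small subunit, among 7620 features tested. The like genes left out include Rpl37l1 and Rpl36al1, which RefSeq lists with the synonyms Rpl37 and Rpl36al.

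The tumors were xenografts of C6, an established rat glioma cell line, grown under the skin of athymic female nude mice (SWISS nu+/nu+). From 3 days after inoculation the mice were injected intraperitoneally on 5 days a week for 19 days, either with MNF, (R,R')-4-methoxy-1-naphthylfenoterol, a derivative of the beta-adrenergic agonist fenoterol, at 2 mg/kg, or with vehicle alone. Both groups received the vehicle, saline with 100 µM ascorbic acid, although a legend of the study names another duration and buffer. There were 6 MNF-treated and 6 vehicle-treated tumors, 3 of each in each of 2 cohorts of animals, and each tumor was measured on 1 Illumina RatRef-12 array. All tumors derive from 1 cell line.

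The values below are log2 signals that were Z-normalized within each array and then rescaled to log2 units, so that 0 is the mean of the probes kept on that array. Every change is MNF minus vehicle from a limma fit with cohort as a covariate, and p-values were adjusted by Benjamini-Hochberg over all 7620 features. Mean raw signal was 500.4 to 858 on the MNF arrays and 708 to 1062 on the vehicle arrays, and MNF tumor 1 was the lowest of the 12 (the next was 622). Of 8 glial markers, 7 had a probe and all 7 were detected on every array. A mouse host remains in such tumors, and 3 of 8 skeletal muscle markers were detected on every array, with a mean level of -1.75 to 5.51 with MNF and -1.92 to 3.95 with vehicle. All 3 MNF tumors of cohort 2 stood at 3.35 or above on this muscle mean, and the 3 vehicle tumors of cohort 1 at -0.25 or below. In cohort 2, vehicle tumors 4, 5 and 6 stood at -1.92, 3.95 and 3.36. In cohort 1, MNF tumors 1, 2 and 3 stood at 2.23, -1.75 and 0.64. The muscle changes were 1.66 for Acta1 (standard error 1.08), 1.86 for Myl1 (standard error 0.79) and 1.97 for Tnnc2 (standard error 0.88). Of 3 red blood cell markers, 2 were detected on every array, the hemoglobin genes Hbb, with a change of 1.29 (standard error 0.56), and Hba-a1, with 0.80 (standard error 0.38). Their mean level was 2.85 to 5.80 with MNF and 1.86 to 4.30 with vehicle. A whole-tumor signal cannot tell fewer cells of a type from less RNA per cell. Whether mouse ribosomal protein mRNAs bind these rat probes was not tested.

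The sequence around the annotated start holds a pyrimidine run in most of these genes. The following are 30 bases each, from 15 before the start, 5' to 3' on the gene's strand, taken from RefSeq (GRCr8), with the longest pyrimidine run of 5 or more in capitals. The first 4 are the marker genes, which are also the 4 members with the smallest p among those above 0 with MNF. The last 4 are the members with the smallest p among those below 0.
Rplp1 (chr8:71290858-71290887, minus strand): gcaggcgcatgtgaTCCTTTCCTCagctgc
Rps6 (chr5:106420526-106420555, minus strand): gacgCCTCCTaggcggtcggctgtgtcaag
Rps26 (chr7:1643390-1643419, minus strand): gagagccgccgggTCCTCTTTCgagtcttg
Rpl19 (chr10:83519049-83519078, plus strand): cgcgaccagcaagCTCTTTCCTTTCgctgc
Rplp2 (chr1:205975906-205975935, plus strand): CCTTTCgccgccggacgccgccgaggtcgc
Rpl24 (chr11:58128391-58128420, minus strand): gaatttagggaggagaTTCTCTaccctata
Rpl14 (chr8:129163605-129163634, plus strand): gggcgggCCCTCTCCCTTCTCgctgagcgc
Rpl31 (chr9:49143096-49143125, plus strand): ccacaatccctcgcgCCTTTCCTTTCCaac

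Among the genes shown, the run is longest in Rpl14, at 14 letters, and in Rpl19 and Rpl31, at 12 each. Whether run length goes with the change was not tested. In Rps6 and Rplp2 the run of 6 letters lies upstream of the annotated start, which need not be the first base of the mRNA in these tumors. A promoter was found for 48 of the 56 members, and Rpl15, Rpl27, Rpl30, Rpl32, Rpl7, Rpl8, Rps20 and Rps29 had none. A pyrimidine run of 5 or more lay within the 30 bases in 43 of 48 members (89.6%), against 45.6% of all 33469 promoters. The letters CTTTCC, read on the gene's strand alone and all pyrimidines, so that each match lies within such a run, were present in 29.2% of members and 1.24% of all promoters. The subunits were alike in this count, with a run of 5 or more in 25 of 28 large-subunit and 18 of 20 small-subunit genes. The annotated start itself was a C in 25 of 48 members (52.1%), against 24.1% of all promoters. In the whole window of 300 bases, read on both strands, CCGGAAG was found in 29.2% of members and 8.75% of all, AAGATGGC in 10.4% and 3.17%, and TATAAA in 8.33% and 14.2%. CACGTG, which reads the same on both strands, was found in 8.33% and 6.42%.

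Most members gave strong signals. The mean log2 signal before normalization was 12.43 to 15.36 for 49 members and 8.08 to 10.45 for the other 7 (Rplp2, Rps16, Rps24, Rpl5, Rpl15, Rpl30 and Rpl31), against a median of 9.29 over all features. This split at a log2 of 12 was made after the values were seen, and a probe's level depends on the probe as well as on the transcript. For Rpl11, Rpl12, Rpl34, Rpl36a and Rps19 no probe was detected on any array, with raw signals of 91.7 to 187.4. Rpl11 forms the 5S particle with Rpl5, and Rps19 is the gene most often mutated in the human anemia named after Diamond and Blackfan. A probe that fails and a low mRNA give the same reading, so the levels of the genes without a detected probe are not known here.

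With MNF, 40 of 56 members were above 0 and 16 below, with a median change of 0.11, but this direction held only under some scalings: the median was -0.020 with quantile normalization, -0.0034 with cyclic loess, -0.024 with neqc and -0.012 with median centring, where 23 to 27 members were above 0. Over all features 50.2% were above 0 and the median was 0.0013. No member passed an adjusted p of 0.05, nor did any feature (0%), and the smallest adjusted p among members was 0.55. At an unadjusted p under 0.05, 5 members were higher and 0 lower, beside 3.22% of all features higher and 4.78% lower. There were 511 other bright features, with a mean log2 signal of 12.43 or more. Of these, 344 were above 0, 40 were higher at that p and 13 lower. The 5 members are Rplp1, Rps6, Rps26, Rpl19 and Rpl13a. Without MNF tumor 1 the median was 0.064. The 5 became 10 without MNF tumor 2 or 6, 8 without vehicle tumor 6, 3 without MNF tumor 5 or vehicle tumor 2, 3 or 5, and 2 without MNF tumor 3. In no member did all 6 MNF tumors lie above or below all 6 vehicle tumors, beside 0.21% of features in which all 6 lay above.

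**Figure D1:**
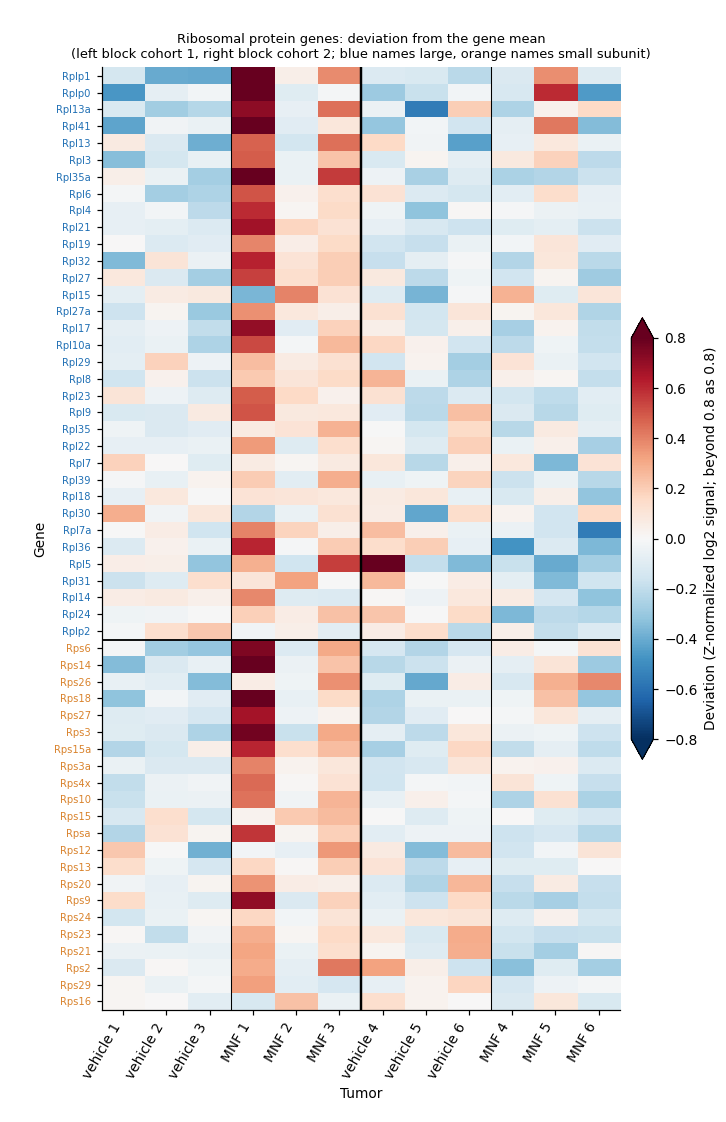
Deviation of each of the 56 genes (rows, large subunit above, small below, ordered by change) from its mean over the 12 tumors (columns), in Z-normalized log2 units, red above and blue below the mean. The column of MNF tumor 1 is the reddest, with a median deviation of 0.40, and the MNF columns of cohort 2 are mostly blue.

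The subunits had similar medians. The median change was 0.11 over the 34 large-subunit genes (23 above 0, 3 at p under 0.05) and 0.088 over the 22 small-subunit genes (17 above 0, 2 at p under 0.05), and both medians were between -0.032 and 0.0032 with quantile, loess, neqc or median centring. The large-subunit median was 0.064 without MNF tumor 1 and 0.074 without vehicle tumor 3. The mean of the large-subunit genes minus that of the small-subunit genes was -0.17 to -0.068 (median -0.12) on the 6 MNF arrays and -0.21 to -0.0089 (median -0.11) on the 6 vehicle arrays. The groups overlapped fully in this difference, whose absolute value carries the probes' own brightness. The lowest and the highest value were both on vehicle arrays, of tumors 6 and 4.

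**Figure D2:**
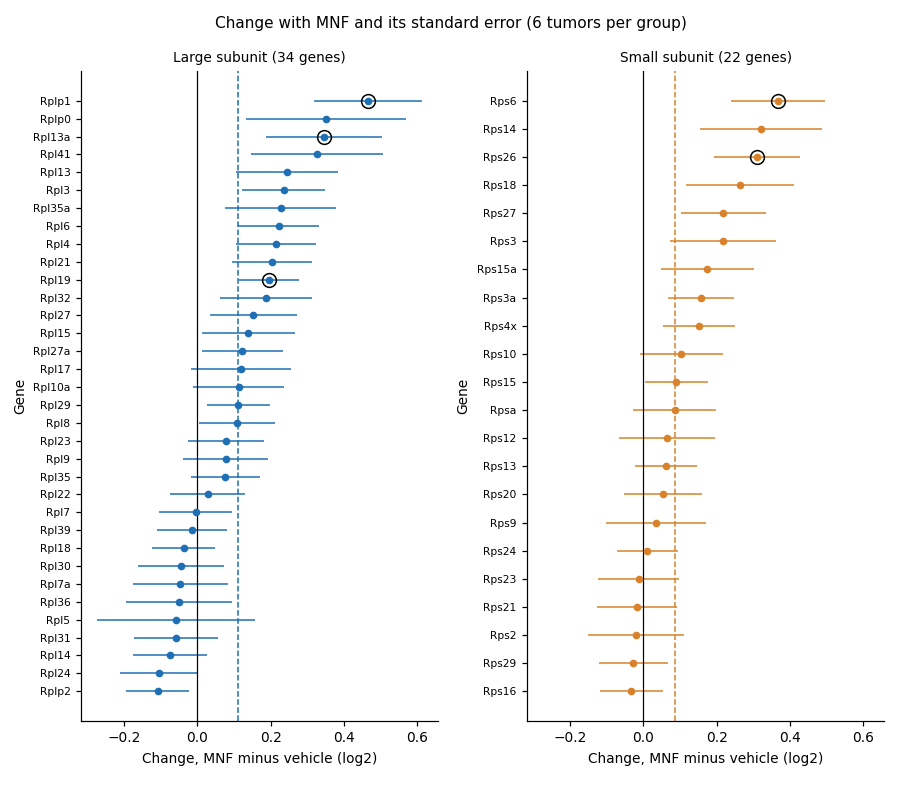
Change with MNF (log2, horizontal axis) of each large-subunit (left, blue) and small-subunit gene (right, orange), with its standard error from 6 tumors per group. Dashed lines are the subunit medians, 0.11 and 0.088, and rings mark the 5 genes at an unadjusted p under 0.05, all above 0.

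The largest change belonged to a gene of the P stalk, the flexible arm of the large subunit that recruits the elongation factors. Rplp1 was at 4.43, 4.76 and 5.36 (lowest, median and highest of 6) with MNF and at 4.13, 4.37 and 4.44 with vehicle. MNF tumor 4 lay within the vehicle range, tumor 6 at its upper edge and the other 4 above it. Its change was 0.47 (standard error 0.15, n = 6 per group, limma adjusted p = 0.55). In each of the 27 settings tried, Rplp1 had the highest change of all members except under loess without MNF tumor 1, where it came after Rps26, and its unadjusted p ranged from 0.0010 to 0.022. These settings reuse the same 12 arrays, so they do not count as separate support. Rplp0, the base of the stalk, was at 5.07, 5.46 and 6.66 with MNF and 5.06, 5.39 and 5.50 with vehicle, a change of 0.35 (standard error 0.22). MNF tumors 1 and 5 exceeded every vehicle tumor clearly, tumor 3 barely, and the other 3 did not. The raw signal of this probe was 31244 to 42250 over the 12 arrays. On MNF tumors 1 and 5, the arrays with the lowest mean signals, it was 39055 and 39603, close to the highest signal of any probe there (42066 and 41429), and whether it was saturated was not tested. The probe of Rpl41 was at 39971 and 40231 on these arrays, and that of Rps14 at 39653 on MNF tumor 1. Saturation was not tested for them either. Rplp2, the partner of Rplp1, was one of the dim probes and had the lowest change of all members, -0.11 (standard error 0.086), with ranges of -1.75 to -1.52 and -1.78 to -1.35.

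On the small subunit, Rps6, the protein phosphorylated by the S6 kinases, was at 4.52, 4.72 and 5.38 with MNF and 4.33, 4.45 and 4.62 with vehicle. Its change was 0.37 (standard error 0.13, limma adjusted p = 0.60). MNF tumor 2 lay within the vehicle range and tumor 5 at its upper edge. In cohort 2 all 3 MNF tumors were above all 3 vehicle tumors for Rps6. This was met in 1 of 56 members and in 486 of 7620 features, a larger share. Rpsa, also known as the laminin receptor, had 0.086 (standard error 0.11). The next gene, Rps26, lies at the mRNA exit channel, and its mutations cause the same human anemia as those of Rps19. It was at 3.92, 4.22 and 4.44 with MNF and 3.65, 3.96 and 4.11 with vehicle, a change of 0.31 (standard error 0.12, limma adjusted p = 0.60). Its 2 groups overlapped from 3.92 to 4.11, and it was the one member for which MNF tumor 6 was the highest. Rps14, at the same channel, had 0.32 (standard error 0.17). It was at 6.69 on MNF tumor 1, where its raw signal was near the highest of the array, and at 5.87 on the next, MNF tumor 3. At the mRNA entry and decoding site, Rps3 had 0.22 (standard error 0.14), Rps15 0.090, Rps2 -0.020 and Rps23 -0.013, and on the beak Rps10 had 0.10 and Rps12 0.064. None of these passed an unadjusted p of 0.05.

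At the rim of the exit tunnel, Rpl19 was at 4.53, 4.70 and 5.02 with MNF and 4.44, 4.52 and 4.63 with vehicle. Its change was 0.19 (standard error 0.082, limma adjusted p = 0.61), and 2 MNF tumors, 4 and 6, lay within the vehicle range. The other tunnel genes had 0.12 (Rpl17), 0.077 (Rpl35), -0.013 (Rpl39) and -0.058 (Rpl31), so the 5 measured genes of this site did not share a direction. Rpl5, the measured gene of the 5S particle that binds Mdm2, had -0.057 with a standard error of 0.22, which among members only Rplp0 exceeded.

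The members below 0 did not pass the test. Rpl24 had -0.10 (standard error 0.11) and Rpl14 had -0.074 (standard error 0.10). Rpl14 was at 4.79, 5.01 and 5.50 with MNF and 5.07, 5.16 and 5.20 with vehicle, so 4 of 6 MNF tumors lay below the lowest vehicle tumor and MNF tumor 1 above the highest. Its change was 0.048 with the Z scale set over all probes, 0.046 with the processed scores, and -0.25 with quantile normalization (unadjusted p = 0.0082) and -0.22 with loess (unadjusted p = 0.012). Rpl14 had the lowest change of the members with quantile, loess, neqc and median centring, and Rplp1 the highest in all 4.

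The members' medians in the 2 cohorts had opposite signs, under all 25 settings that gave both. In cohort 1, 53 of 56 members were above 0 with MNF (all features 50.1%), with a median change of 0.27 and 18 higher at an unadjusted p under 0.05 (3.82% of features). In cohort 2, 20 of 56 were above 0 (all features 48%), with a median of -0.070 and 4 lower at an unadjusted p under 0.05, a share near that of all features (5.45%). Of the 511 other bright features, 356 were above 0 in cohort 1, and 56 were higher at that p. In cohort 2, 266 of them were above 0 and 17 were lower at that p. The members' cohort 1 values depended on the scaling. With quantile normalization the medians were 0.042 and -0.082, with 32 and 19 above 0, and with median centring they were 0.15 and -0.14, with 49 and 9 above 0. In cohort 1 the 18 became 2 with quantile, 4 with loess, 1 with neqc, 6 with median centring and 37 with the Z scale set over all probes, and in cohort 2 the 4 became 5, 6, 4, 8 and 2. Without MNF tumor 1 the median in cohort 1 was 0.17 and 3 members were at p under 0.05. In cohort 2 the median was -0.020 without vehicle tumor 4 or 6 and -0.041 without MNF tumor 6. The counts of 18 and 4 also moved with single tumors: 29 without MNF tumor 2, 11 and 9 without vehicle tumors 1 and 3, and, in cohort 2, 1 or 2 without MNF tumor 5 or 6 or vehicle tumor 2 or 4. In cohort 1 all 3 MNF tumors lay above all 3 vehicle tumors in 24 members (7.93% of features), and in cohort 2 all 3 lay below in 6 members (7.1% of features).

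**Figure D3:**
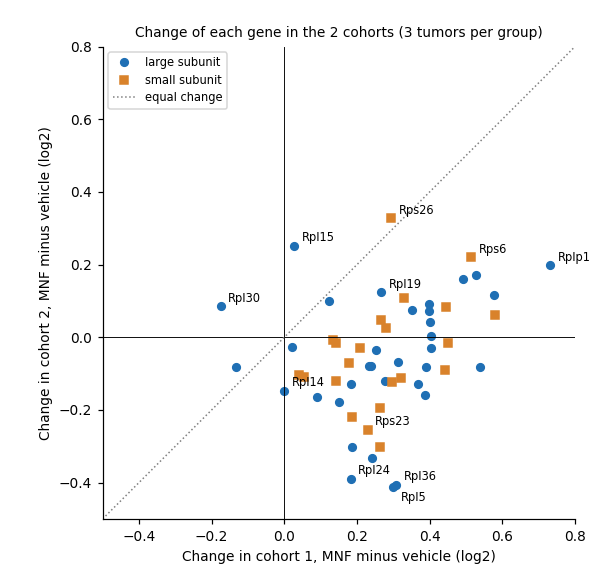
Change with MNF (log2) of each gene in cohort 1 (horizontal axis) and cohort 2 (vertical axis), 3 tumors per group in each, with the dotted line marking equal changes. Of 56 genes, 34 lie above 0 in cohort 1 and below 0 in cohort 2, and 52 lie below the line.

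The test of the difference between the cohorts' changes called 0 members at an adjusted p of 0.05 (all features 0%), with a smallest adjusted p of 0.53. At an unadjusted p under 0.05, 11 members had a lower change in cohort 2, 0 a higher one, and 4.13% of all features were lower. Of the 511 other bright features, 24 were lower and 8 higher at that p. The median difference of the members was -0.33, against -0.024 over all features and -0.14 over the other bright features. The 11 became 26 without MNF tumor 2, 7 without MNF tumor 1 or vehicle tumor 3, 6 without MNF tumor 4 and 5 without vehicle tumor 4. Across the 56 members the cohorts' changes had a Pearson r of 0.28 and a Spearman rho of 0.34, over genes that share the same 12 libraries.

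Rpl24, which joins the large subunit late in its assembly, had the smallest p of this test. In cohort 1 it was at 3.47 to 3.64 with MNF and 3.38 to 3.41 with vehicle, and in cohort 2 at 3.05 to 3.20 and 3.41 to 3.63. The groups did not overlap in either cohort and stood in opposite order, a pattern met in 2 members, Rpl24 and Rps23, and in 0.433% of features. Its change was 0.18 (standard error 0.11) in cohort 1 and -0.39 (standard error 0.11) in cohort 2, a difference of -0.57 (standard error 0.15, limma adjusted p = 0.53). The difference was negative in all 25 settings that could give it, at -0.69 to -0.48. Rps23, a decoding-site protein, had 0.23 and -0.25, a difference of -0.48 (standard error 0.18, adjusted p = 0.53). Rpl36 had 0.31 and -0.41, a difference of -0.71 (standard error 0.22, limma adjusted p = 0.53). Of the 56 members, 4 did not have the lower change in cohort 2. These were Rps26, with 0.29 in cohort 1 and 0.33 in cohort 2, and 3 dim probes, Rplp2 with -0.13 and -0.082, Rpl15 with 0.027 and 0.25, and Rpl30 with -0.18 and 0.085. Rplp1 had 0.73 and 0.20. The muscle mean given above also differed between the cohorts, and its part in these values was not tested.

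Cohort 2 was lower than cohort 1 in 54 of the 56 members after treatment was accounted for, with a median of -0.12, which was -0.030 with quantile normalization and -0.065 without MNF tumor 1. Over all features, 3811 of 7620 were lower. Of the 511 other bright features, 341 were lower, with a median of -0.058, and 32 of them at an unadjusted p under 0.05. No member was called (all features 0%), and 2 members were lower at an unadjusted p under 0.05 (3.88% of features). These were Rpl35a, another gene of the same human anemia, at -0.35 (standard error 0.15, limma adjusted p = 0.63), and Rpl21, at -0.24 (standard error 0.11, limma adjusted p = 0.65). Next came Rpl23, at -0.21 (standard error 0.10). The 2 members above 0 were Rps26, at 0.033, and Rps16, at 0.0047. The count of 2 was 0 without MNF tumor 1, 4, 5 or 6, 1 without MNF tumor 3 or vehicle tumor 2, and at most 5 without another tumor.

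One array stood apart. After Z-normalization MNF tumor 1 was the highest of the 12 arrays for 39 members, while its raw signal was the lowest of the 12 for 33 members. Z-normalization divides each array by the SD of its kept log2 signals. This SD was 1.59 on MNF tumor 1 and 1.62 to 1.74 on the other arrays, and its part in these ranks was not tested. The median deviation of the members from their means was 0.40 on MNF tumor 1, 0.15 on MNF tumor 3 and -0.17 to 0.0080 on the other 10. The mean of the 2 hemoglobin genes was also highest on these arrays, at 4.87 on MNF tumor 1 and 5.80 on MNF tumor 3. It was next on MNF tumor 5, at 4.73, where the members' median deviation was -0.033. The part of hemoglobin in the members' change was not tested. Bright features that are not members were also high on MNF tumor 1, with a median deviation of 0.19 over 511 features. Without the array, 34 members were above 0, and Rps6, Rpl15, Rplp1 and Rps26 were at an unadjusted p under 0.05.

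The change also varied with signal level, in members and in other features alike. After Z-normalization the members with a mean log2 signal of 13 to 14 had a median change of -0.0033 (15 genes), those at 14 to 15 had 0.14 (22 genes) and those at 15 to 16 had 0.21 (10 genes). The other features at the same levels had 0.068 (194 features), 0.16 (105) and 0.26 (21), each above the members' median. At 12 to 13 the order was the opposite, with 0.063 for 2 members and -0.0020 for 393 other features. Cyclic loess, which removes a trend with signal level, brought the members of these 3 classes to -0.060, 0.010 and 0.024 and the other features to 0.0035, 0.029 and 0.071.

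**Figure D4:**
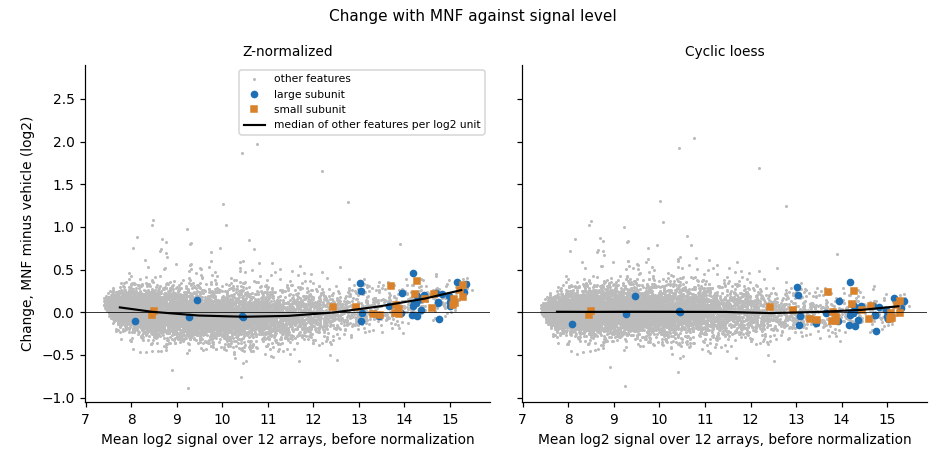
Change with MNF (log2, vertical axis) against mean log2 signal over the 12 arrays (horizontal axis) for 7620 features, Z-normalized (left) and after cyclic loess (right), with large-subunit genes in blue, small-subunit genes in orange and the median of the other features as a line. In the left panel the line climbs to 0.26 above a log2 of 15. The members climb too, to a median of 0.21, and their medians lie below the line from a log2 of 13. In the right panel both stay near 0.

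For the family the median depended on the scaling. It was 0.11 as reported and about 0 with quantile, loess, neqc and median centring. The members' median was 0.21 when the Z scale was set over all probes and 0.21 with the processed scores, while all features had a median of -0.048 in both. The 4 scalings that gave about 0 still placed Rplp1 at 0.30 to 0.35, and Rpl14 at -0.26 to -0.21. Relative to the median of all members, Rplp1 was higher by 0.33 to 0.35 and Rpl14 lower with values of -0.23 to -0.20 in these 4, against 0.36 and -0.18 as reported.

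**Figure D5:**
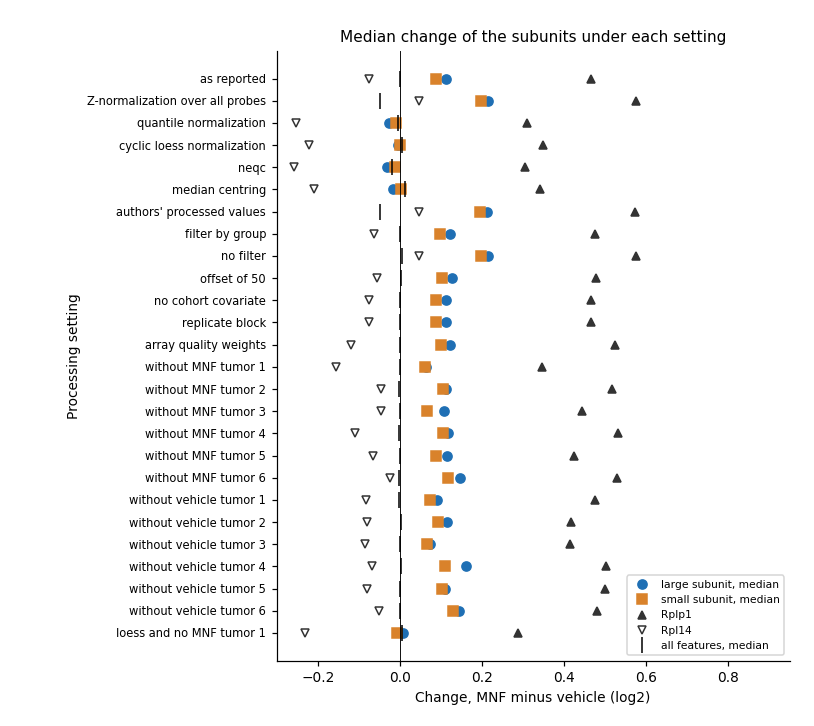
Median change with MNF (log2) of the large-subunit genes (blue), the small-subunit genes (orange) and all features (bars), with Rplp1 and Rpl14 as triangles, under 26 processing settings (vertical axis). The subunit medians are 0.20 and 0.21 with the Z scale over all probes and between -0.032 and 0.0032 with quantile, loess, neqc and median centring, while Rplp1 is at 0.29 or above in all 26.

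Other genes of the translation apparatus were set beside the members. Of the ribosomal proteins that the symbol rule leaves out, 2 were measured. Fau, which encodes Rps30 fused to a ubiquitin-like protein, had a change of 0.39 (standard error 0.14), and Rack1, a scaffold on the small subunit, had 0.32 (standard error 0.13), both at an unadjusted p under 0.05. Their median of 0.35 was 0.20 to 0.24 with quantile, loess, neqc and median centring and 0.22 without MNF tumor 1. With median centring neither was at an unadjusted p under 0.05. Of 16 other genes with TOP mRNAs, 12 were measured and 11 were above 0, with a median of 0.17 (0.033 to 0.084 in those 4 scalings, with 9 or 10 above 0). At an unadjusted p under 0.05, 2 of them were higher, Eef1a1, the factor that delivers aminoacyl-tRNA, at 0.29 and the nucleolar chaperone Npm1 at 0.20. This count was 0 with neqc, with median centring or without MNF tumor 1 or 5 or vehicle tumor 1 or 3. It was 1 without MNF tumor 3 or 4 or vehicle tumor 2, 5 or 6, and 4, 5 and 6 without MNF tumor 2, MNF tumor 6 and vehicle tumor 4. Of 38 ribosome assembly genes, 28 were measured, with a median of -0.018, which was 0.011 with quantile, 0.0083 with loess, 0.0018 with neqc, -0.041 with median centring and -0.046 with the Z scale over all probes. It was -0.040 to 0.040 without 1 tumor at a time, and above 0 without MNF tumor 4 or 5 or vehicle tumor 4. Nolc1, a nucleolar phosphoprotein, had 0.29 (standard error 0.086) and Nop58, a core protein of box C/D nucleolar particles, had -0.36 (standard error 0.12), both at an unadjusted p under 0.05. Of 60 mitochondrial ribosomal protein genes, 56 were measured and 39 were below 0, with a median of -0.086 (-0.038 with loess, with 32 below 0). At an unadjusted p under 0.05, 6 were lower, among them Mrps24 at -0.36 and Mrps17 at -0.29. The 6 became 3 without MNF tumor 5 and 10 without vehicle tumor 6, and the median was -0.041, -0.049 and -0.046 without MNF tumor 2, MNF tumor 5 and vehicle tumor 4. None of these genes passed the adjusted p of 0.05.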

How the data were processed

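The 12 arrays were RatRef-12 BeadChips from Illumina, 1 per xenograft. The authors' files, made with GenomeStudio (the processing notes give version 1.6.0), hold per array the signal intensity and the detection p-value of 22517 probes, deposited with no normalization. A processed table lists Z scores of 11080 probes, and these deposited scores match, to within 0.0124, Z scores computed from log10 signals with every probe included. Genes were named from the platform annotation (13259 probes with 1 symbol). The 7677 probes detected at a p under 0.02 on all arrays were kept. Log2 signals were centred and scaled per array and multiplied by the mean SD, and the brightest probe stood for a gene. MNF and vehicle were compared in limma 3.58.1 (R 4.3.3) with cohort as covariate, and a model of 4 groups gave the changes within cohorts. The fit was tested on simulated data. Genes were named by rule: the 4 markers, the members with the smallest p in each direction for treatment (4 each) and cohort (3 each, of which 2 exist above 0), the 2 with the smallest p for the difference between cohorts, and fixed role groups, in which Rpl23a, Rpl26, Rps27a and Rps28 have no measured probe. The 4 markers are the same genes as the 4 with the smallest p above 0 for treatment. Rpl13a and the promoter motifs were chosen after values were seen. The members and lists were chosen with earlier results of these data known. The highest correlation of 2 arrays was 0.990, between tumors of different groups, so none was taken for a duplicate. Precision is limited by the number of arrays. Of other cells' markers, 2 of 6 macrophage, 3 of 6 fibroblast, and 0 endothelial, adipocyte or keratinocyte genes were detected on all arrays.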

Additional observations from a re-analysis of the deposited data

Results flagged for a closer look

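Among the named members, Rpl39, a small protein at the exit tunnel, stood out in vehicle tumor 6, at 4.46 where the next vehicle tumor was at 4.31, and Rpl5 stood out in vehicle tumor 4, at 0.55 where the next was at -0.33. Of 112 sets of 6 tumors (56 members in 2 groups), 7 held a tumor that far from the rest, and chance gives about 1 in 20 such sets. In 3 of the 7 the tumor was MNF tumor 1.

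Rpl24 and Rps23 had MNF tumors all above vehicle tumors in cohort 1 and all below in cohort 2. The difference between the cohorts' changes was -0.57 for Rpl24 and -0.48 for Rps23, and the test of that difference did not pass an adjusted p of 0.05 for either.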

How the results depend on the processing

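No member was called for treatment, cohort or their interaction under any of the settings run, in which the direction of the family's median changed with the scaling. Members higher and lower at an unadjusted p under 0.05 numbered 2 and 2 with quantile normalization, 2 and 1 with cyclic loess, 1 and 1 with neqc, 1 and 1 with median centring, and 3 and 1 with loess without MNF tumor 1 (chosen after seeing the data). They were 9 and 0 with array quality weights, and 1 was lower with no filter. In either direction, 560, 563, 559 and 624 of 7620 features were at that p with quantile, loess, neqc and median centring. The count was 532 with loess without MNF tumor 1, 796 with array quality weights and 1640 of 22236 with no filter. The median change of members was -0.020, -0.0034, -0.024 and -0.012 with quantile, loess, neqc and median centring, and that of the large subunit -0.025, -0.0034, -0.032 and -0.017. The small-subunit median was 0.20 with a Z scale over all probes, with the processed values and with no filter. The median interaction was -0.54, -0.53 and -0.54 in these 3, -0.085 with quantile, -0.12 with loess, -0.090 with neqc and -0.13 with loess without MNF tumor 1. Members lower in the interaction at an unadjusted p under 0.05 numbered 4, 5, 4 and 3 in those last 4 and 17 with no filter. Without 1 tumor at a time, 2 to 10 members were higher, the median interaction was -0.46 to -0.22 and 5 to 26 members were lower in it. For treatment, 370 to 781 of 7620 features were then at an unadjusted p under 0.05 in either direction. With the replicate number as a block (replicate block) the median change stayed 0.11 and 4 members were higher. Correlations of deviations by number were -0.19 to 0.38. Tumors of unlike number were not compared, so these values do not show whether the numbers pair the tumors.

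Single genes with a change near 0 turned sign. Rpl14, Rpl36, Rpl39, Rps2 and Rps23 had 0.048, 0.036, 0.082, 0.057 and 0.079 with Z-normalization over all probes and with no filter, and 0.046, 0.035, 0.081, 0.056 and 0.078 with the processed values. Rpl17, Rpl23, Rpl35, Rps10 and Rpsa had -0.064, -0.013, -0.061, -0.069 and -0.077 with quantile, -0.028, -0.0027, -0.032, -0.066 and -0.081 with loess, -0.074, -0.019, -0.068, -0.067 and -0.078 with neqc, and -0.016, -0.026, -0.039, -0.040 and -0.057 with median centring. Rpl17, Rpl23, Rps10 and Rpsa had -0.081, -0.037, -0.055 and -0.092 with loess without MNF tumor 1. Rpl31 had 0.00039 with loess, and with median centring Rps12 had -0.0027, Rps15 -0.015 and Rps16 0.0091. Rpl39, Rpl5, Rps2 and Rps23 had 0.047, 0.11, 0.10 and 0.023 with array quality weights. Without 1 tumor at a time, the change ranged from -0.0048 to 0.17 for Rpl17, -0.13 to 0.0040 for Rpl31, -0.16 to 0.026 for Rpl36, -0.066 to 0.038 for Rpl39, -0.17 to 0.16 for Rpl5, -0.018 to 0.13 for Rps12, -0.098 to 0.068 for Rps2, -0.069 to 0.061 for Rps23 and -0.0065 to 0.12 for Rpsa. The cause of these changes was not tested.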
